A study of Chelidonium majus with 4 samples.

Results

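In *Chelidonium majus*, greater celandine, a poppy-family herb rich in benzylisoquinoline alkaloids, the study labels assembled transcripts for both enzymes that it places on the branch to berberine. The first, *SMT*, is (S)-scoulerine 9-O-methyltransferase. The second, *CYP719A1*, is known as (S)-canadine synthase. The 11 contigs described here were chosen by their identifiers, TR43981|c149386_g1_i1 to TR43985|c149390_g1_i1 for *SMT* (5 contigs) and TR15891|c70831_g1_i1 to TR15896|c70836_g1_i1 for *CYP719A1* (6 contigs), out of 232701 contigs in the assembly. They are named below by the part of the identifier that starts with c. All 11 passed the limit on low counts. RNA was measured in root (libraries root 2 and root 4) and leaf (libraries leaf 3 and leaf 4) of greenhouse plants of 1 ecotype (IBRCP1006619), with no treatment or age given. Reads were aligned to contigs assembled from all libraries together, and RSEM divided them into estimated counts per contig. The study calls the libraries of a tissue biological replicates, and nothing in its text or the labels says which plant or plants each came from, so a p-value here reflects how far these 4 samples scatter. The contigs carry no tissue marker names in the sources used here, so the tissue labels were not checked against markers.

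Berberine is built from (S)-reticuline, the branch point of many alkaloids of this class. The berberine bridge enzyme turns (S)-reticuline into (S)-scoulerine, *SMT* adds a methyl group to (S)-scoulerine to give (S)-tetrahydrocolumbamine, and *CYP719A1*, a cytochrome P450, closes the methylenedioxy bridge of (S)-canadine, also called (S)-tetrahydroberberine. An oxidation then gives berberine. The roles of both enzymes in *C. majus* rest here on the labels the study gave by sequence similarity. (S)-Scoulerine is also the start of the branch to sanguinarine, which passes through neither enzyme.

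The identifiers within each enzyme share a stem and run in order, and by this numbering each set came from 1 component of the assembly. The *SMT* component held 5 contigs, all of them described here. The *CYP719A1* component held 8, and c70837 and c70838 lay outside the 11. The study's own labels for *CYP719A1* name c70837 and leave out c70834, so both versions of the sum were computed. Contigs of 1 component can share reads, so the 11 are not separate observations, and the counts of each enzyme were also summed to 1 value per library. Lengths of the contigs were not used here, so the level of *SMT* was not set against the level of *CYP719A1*, and the enzymes are compared only in how they differ between libraries.

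The libraries held 15281682 to 19781065 counts. The counts of root 2 and root 4 differed more from each other than those of leaf 3 and leaf 4 (chi-square of 61.8 in root and 31.0 in leaf for each degree of freedom, both above sampling noise). In root 2, 33 contigs with the lowest identifiers took 22.1% of all counts, against 0.323% to 8.02% in the other libraries. Levels were scaled by TMM, a method that sets library sizes by the bulk of the contigs, with a factor of 0.729 for root 2 and 1.03 to 1.23 for the others. The scaled values are given as normalized CPM, that is counts per 1000000 counts after TMM.

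*SMT* transcripts were found mainly in root. The summed level of the 5 contigs was 32.3 normalized CPM in root 2 and 53.1 in root 4, against 1.215 in leaf 3 and 0.678 in leaf 4. These levels stand for 455 and 943 counts in the root libraries and only 22 and 14 counts in the leaf libraries. Both root libraries lay far above both leaf libraries, and the lower root library was still 34.2 times the leaf mean. The root mean was 42.7 ± 14.7 normalized CPM, and the leaf mean was 0.946 ± 0.380 (each ± SD with n = 2 libraries). The fitted difference was 45.2-fold, a log2 fold change (root minus leaf) of 5.50 with a standard error of 0.47.

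*CYP719A1* was also higher in root, by a smaller factor and with a far wider gap between the root libraries. The summed level of the 6 contigs was 317 normalized CPM in root 2 and 91.6 in root 4, against 32.8 in leaf 3 and 30.4 in leaf 4. Root 2 stood at 10.04 times and root 4 at only 2.90 times the leaf mean, while the leaf libraries were nearly equal. Root averaged 204 ± 160 normalized CPM, and leaf averaged 31.6 ± 1.70 (each ± SD with n = 2 libraries). The fitted difference was 6.47-fold, a log2 fold change of 2.69 with a standard error of 0.63.

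**Figure D1:**
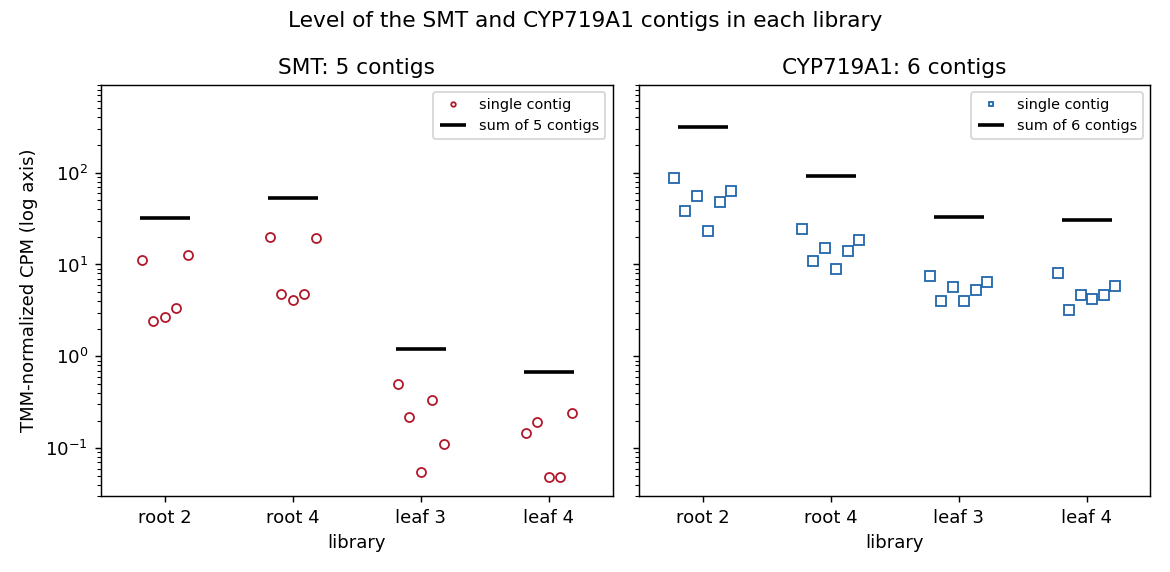
Normalized CPM (log axis) of each *SMT* contig (left, circles) and each *CYP719A1* contig (right, squares) in the 4 libraries, with a black bar for the sum of the enzyme's contigs. The *SMT* sum was 32.3 and 53.1 in root and 1.215 and 0.678 in leaf, and the *CYP719A1* sum was 317 and 91.6 in root and 32.8 and 30.4 in leaf.

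Root was tested against leaf by edgeR's quasi-likelihood test over 47385 contigs, and the call needed a difference of at least 4-fold with an FDR (adjusted by Benjamini-Hochberg) under 0.001. This test called 0 of the 5 *SMT* contigs and 0 of the 6 *CYP719A1* contigs, against 0.443% of all tested contigs called higher in root. At an unadjusted p under 0.05 it had all 5 and all 6 higher in root, against 24.1% of all tested contigs. With the FDR limit eased to 0.05 and the fold limit kept, 5 of 5 *SMT* and 5 of 6 *CYP719A1* contigs were called higher in root, against 10.6% of all tested contigs. By edgeR's exact test at the FDR of 0.001 the counts were again 5 of 5 and 5 of 6, against 9.91%. DESeq2 gave the same numbers, against 8.76% of all tested contigs, and limma-voom called none, against 1.82%. Root and leaf did not overlap in any of the 11 contigs, which held with root higher for 36.5% of all tested contigs. The study drew its pathway contigs from these same libraries, so their shared direction is not independent evidence.

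The sums were near or short of the same limit. For *SMT* the FDR was 0.00123 and for *CYP719A1* 0.0211, both from edgeR's quasi-likelihood test. In *CYP719A1* the size of the difference turned on which root library was kept. A fit without 1 of them has a lone root library, assumed to vary like the leaf libraries, which lay close together, so its FDR leaves out the gap between root 2 and root 4. With root 4 left out, the log2 fold change was 3.41. With root 2 left out, it was 1.53, below the 4-fold limit. With leaf 3 left out it was 2.56 and with leaf 4 left out 2.49, in fits with a lone leaf library. For *SMT* the log2 fold change stayed between 4.99 and 5.81 whichever library was left out. Each of these fits has a lone library in 1 tissue, so passing or missing the limit in them says little about *SMT*. In tissue RNA, more cells that make a transcript and more of it per cell cannot be told apart.

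Among the *SMT* contigs, c149386 and c149390 carried most of the counts. In c149386 there were 159 and 353 counts in root 2 and root 4, against 9 and 3 in leaf 3 and leaf 4. In c149390 there were 177 and 347 counts in the root libraries, against 2 and 5 in the leaf libraries. Together they made up about the same part of the *SMT* counts in either root library: c149386 took 34.9% of them in root 2 and 37.4% in root 4, and c149390 took 38.9% and 36.8%. The log2 fold change was 6.43 for c149390 (standard error 0.50, FDR 0.00107 by edgeR's quasi-likelihood test), the highest of the 5. It was 5.61 for c149386 (standard error 0.62, FDR 0.00239).

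The other *SMT* contigs were scarce. In root they ran from 34 to 85 counts per library, and in leaf from 1 to 6. The lowest log2 fold change of the enzyme, 4.08 (standard error 0.61), was that of c149387, with 34 and 85 counts in root and 4 in each leaf library. In c149388 there were 38 and 73 counts in root and 1 in each leaf library, so that root exceeded leaf 67.6 times, with a 95% interval from 18.3 to 565. That interval covers counting error only, as do all intervals given here. Over the 5 contigs the median log2 fold change was 5.61, against 0.01 over all tested contigs. With so few leaf counts the shares of single *SMT* contigs in leaf are loosely fixed: c149390 took 9.09% of the *SMT* counts of leaf 3 (exact 95% interval 1.12% to 29.2%) and 35.7% of those of leaf 4 (12.8% to 64.9%).

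The *CYP719A1* contigs were closer to each other. The most abundant, c70831, had 1238 and 432 counts in root 2 and root 4, against 135 and 165 in leaf 3 and leaf 4. The next, c70836, had 891 and 328 counts in root, against 116 and 120 in leaf. The log2 fold change of c70831 was 2.86 ± 0.63 (standard error) and that of c70836 was 2.74 ± 0.61, with FDRs of 0.0181 and 0.0183 by edgeR's quasi-likelihood test. For c70832, c70833 and c70835 it ran from 2.65 to 2.78. The median over the 6 was 2.75.

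The contig c70834 had the smallest difference between tissues of the 11. It stood at 328 and 159 counts in root 2 and root 4, against 72 and 86 in leaf 3 and leaf 4. The log2 fold change was 1.98 (standard error 0.49, FDR 0.0265 by the same edgeR test), just under the limit of 2. Of the counts of the whole component, c70834 took 5.72% in root 2 and 7.50% in root 4, against 10.1% in leaf 3 and 10.8% in leaf 4. The exact 95% intervals of root 4 (6.42% to 8.71%) and leaf 3 (8.01% to 12.6%) overlapped. Those of root 2 (5.14% to 6.36%) and root 4 did not, so this share also differed between the root libraries.

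Of the contigs of the component outside the 11, c70838 had a larger difference between tissues than the 6 and c70837 lay within their range. The contig c70838 had 829 and 241 counts in root, against 43 and 60 in leaf. Its log2 fold change was 3.77 ± 0.74 (standard error), with an FDR of 0.0124 by edgeR's quasi-likelihood test. Its share of the component was 14.5% in root 2 and 11.4% in root 4, against 6.05% in leaf 3 and 7.54% in leaf 4. Here the intervals of the root libraries (13.6% to 15.4% and 10.1% to 12.8%) lay above those of the leaf libraries (4.41% to 8.06% and 5.80% to 9.60%). The contig c70837 had 441 and 253 counts in root, against 74 and 108 in leaf, and a log2 fold change of 2.29. Its share was 7.69% in root 2 and 11.9% in root 4, against 10.4% in leaf 3 and 13.6% in leaf 4. The intervals of the root libraries (7.02% to 8.42% and 10.6% to 13.4%) did not overlap, so this share differed between libraries of 1 tissue. The same held for the shares of c70834 and c70838. For the other 5 contigs the shares of the component ran close together in the plot of shares by library. The division of counts among similar contigs was made by RSEM, and its part in these shares was not tested.

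**Figure D2:**
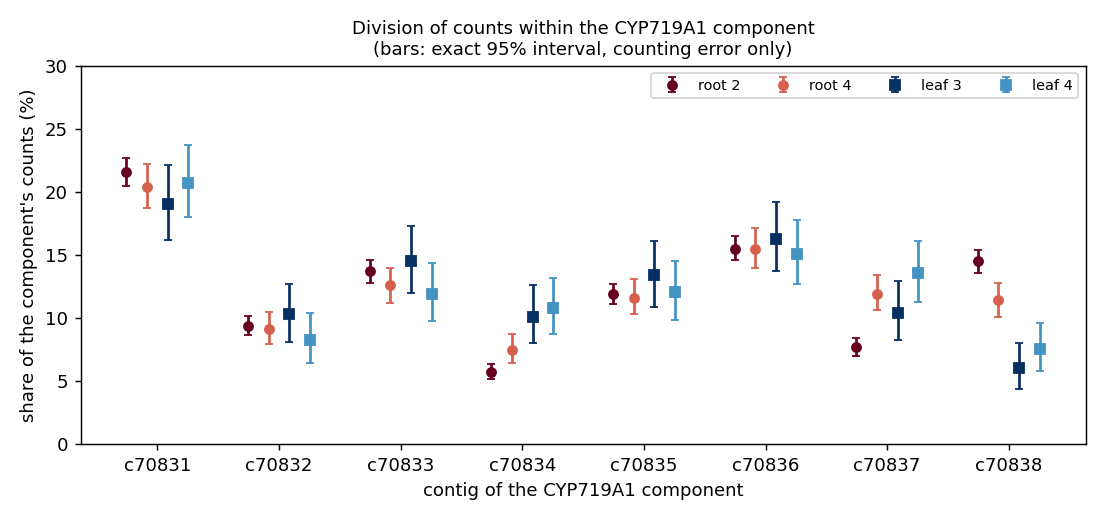
Share of the counts of the *CYP719A1* component (percent, y axis) taken by each of its 8 contigs (x axis) in root 2, root 4 (circles), leaf 3 and leaf 4 (squares), with exact 95% intervals for counting error. The share of c70834 was lower in root (5.72% and 7.50%) than in leaf (10.1% and 10.8%), and that of c70838 was higher in root (14.5% and 11.4%) than in leaf (6.05% and 7.54%). For both contigs the intervals of root 2 and root 4 did not overlap.

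**Figure D3:**
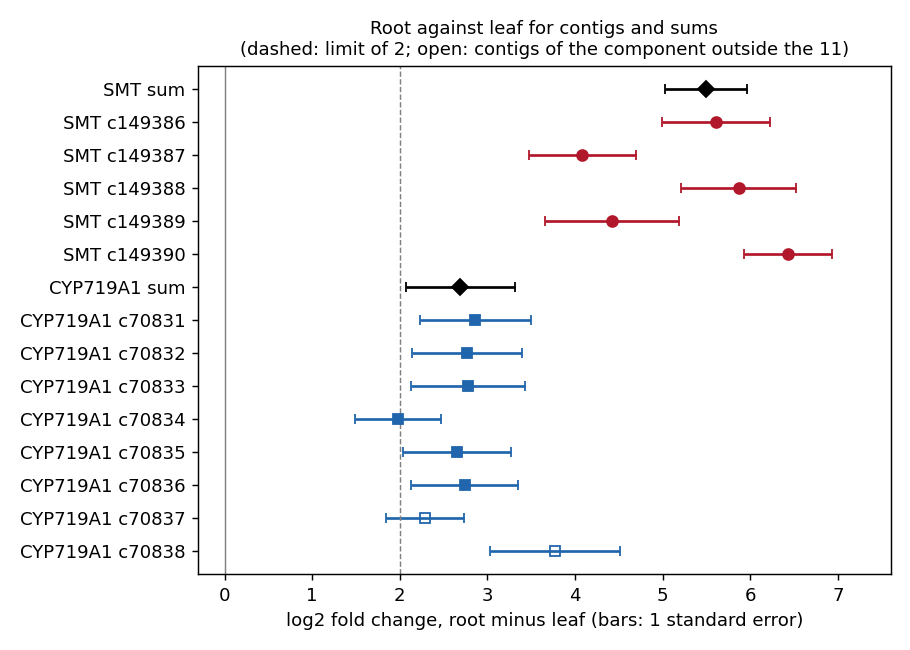
Log2 fold change, root minus leaf, with 1 standard error for every contig of both components and for the sums (diamonds). The 5 *SMT* contigs lay between 4.08 and 6.43 and the 6 *CYP719A1* contigs of the set between 1.98 and 2.86, with c70837 and c70838 as open squares.

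The enzymes differed in how far root stood above leaf. A ratio of their counts within a library does not depend on the scaling between libraries. For every 100 *CYP719A1* counts there were 10.2 *SMT* counts in root 2 and 58.0 in root 4, against 3.70 in leaf 3 and 2.23 in leaf 4. Both root libraries had the higher ratio, and the exact 95% interval of root 2 (9.24 to 11.2) lay above those of leaf 3 (2.30 to 5.66) and leaf 4 (1.21 to 3.77). On the log2 scale the mean of these count ratios was 3.08 higher in root, that is 8.47-fold. This is another estimate than the fitted log2 fold changes of the sums, 5.50 for *SMT* and 2.69 for *CYP719A1*, which lie somewhat less far apart. An exact permutation test over the 6 arrangements of the libraries gave p = 0.333 (two-sided), which is the smallest p that 2 libraries against 2 can give. Without root 4 the difference was 1.83 and without root 2 it was 4.34.

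**Figure D4:**
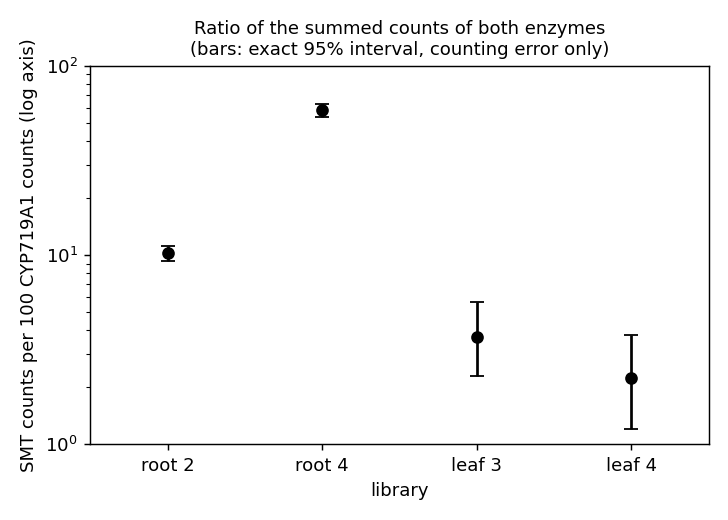
*SMT* counts per 100 *CYP719A1* counts (log axis) in each library, from the summed contigs, with exact 95% intervals for counting error. The ratio was 10.2 in root 2 and 58.0 in root 4, against 3.70 in leaf 3 and 2.23 in leaf 4.

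Behind the gap between root 2 and root 4 in that ratio, the enzymes stood in opposite order in the root libraries. The *SMT* sum was 1.64 times higher in root 4 than in root 2 (95% interval 1.47 to 1.84). The *CYP719A1* sum was 3.46 times higher in root 2 than in root 4 (3.27 to 3.67). The ratio of *SMT* to *CYP719A1* counts was thus 5.69 times higher in root 4 (5.01 to 6.46). This order was part of why the enzymes were set side by side, so it is a description of 2 libraries and was given no test. In leaf, the ratio of leaf 3 to leaf 4 was 1.08 for *CYP719A1* (0.963 to 1.21). For *SMT* it was 1.79 (0.877 to 3.79), so that a difference as large as that between the root libraries could be neither shown nor set aside from 22 and 14 counts.

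The same order was seen in each contig, but contigs of 1 component can share reads and make up the sums, so they repeat 1 comparison. The median log2 ratio of root 2 to root 4 over all tested contigs was 0.009, so neither order was rare. All 5 *SMT* contigs had a lower level in root 2 than in root 4, with ratios from 0.504 to 0.697. The interval of c149389 (0.478 to 1.01) included 1. All 6 *CYP719A1* contigs had a higher level in root 2, with ratios from 2.60 for c70834 to 3.72 for c70833. Outside the set, c70837 had 2.20 and c70838 had 4.34. Among all tested contigs, 20.0% were at least 1.5-fold higher in root 2 and 20.4% at least 1.5-fold higher in root 4. A ratio as far towards root 2 as that of the *CYP719A1* sum was found in 1.59% of them, and one as far towards root 4 as that of the *SMT* sum in 16.5%. Differences of the size seen for *SMT* were common in these libraries, and those of the size seen for *CYP719A1* were rare. Scaled by library totals instead, the root 2 to root 4 ratios were 0.362 for *SMT* and 2.06 for *CYP719A1*, so the order was the same and the sizes moved by over 1.5 times.

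**Figure D5:**
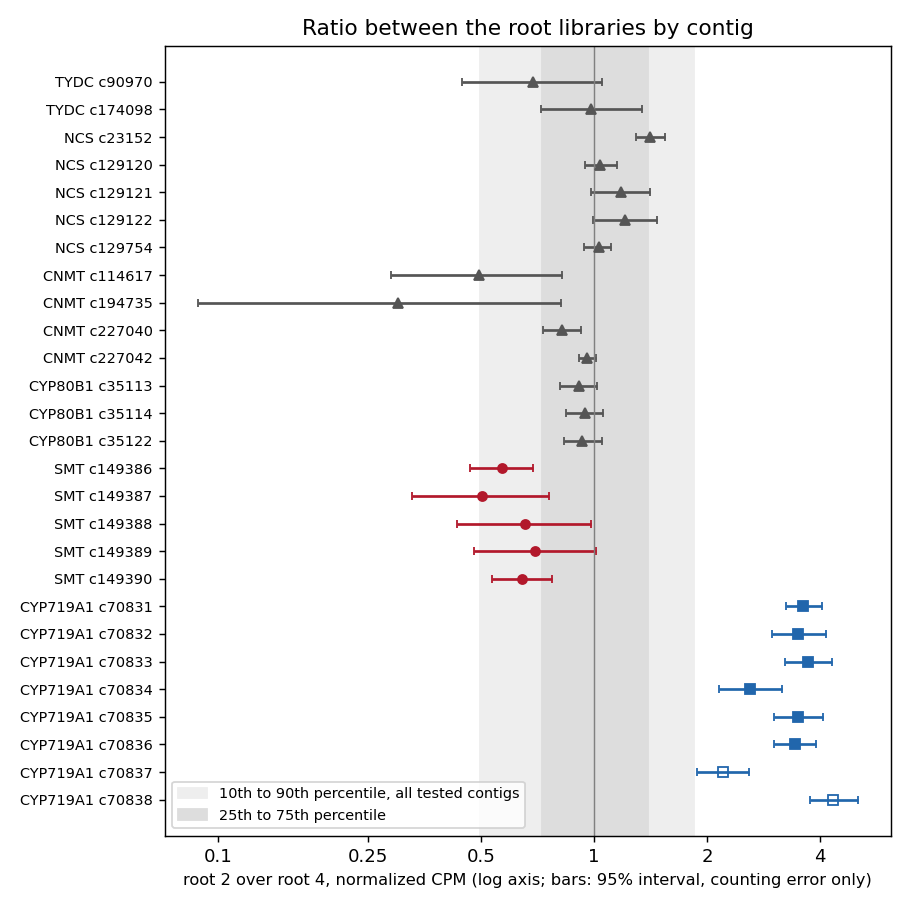
Ratio of root 2 to root 4 in normalized CPM (log axis) with 95% intervals for counting error, for the *SMT* contigs (circles), the *CYP719A1* component (squares, open for c70837 and c70838) and 14 contigs of earlier steps (triangles). The *SMT* contigs lay between 0.504 and 0.697, the *CYP719A1* contigs of the set between 2.60 and 3.72, and the earlier steps between 0.300 and 1.41. Grey bands show the spread over all tested contigs.

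The enzymes that lead to (S)-reticuline were represented by 14 contigs of *TYDC*, *NCS*, *CNMT* and *CYP80B1*. *TYDC* decarboxylates tyrosine or dopa, *NCS* joins dopamine to an aldehyde in the first committed step, *CNMT* adds an N-methyl group to coclaurine, and *CYP80B1* hydroxylates N-methylcoclaurine. For *NCS* and *CNMT* these are only the contigs that an earlier look at these data had named for their abundance or their difference between tissues, so no share is read from them. Of the 14, 13 had a higher estimate in root and 1, *CNMT* contig TR72971|c194735_g1_i1, in leaf. At the FDR of 0.001, 3 of the 14 were called higher in root, all *NCS*, and none in leaf. Of all 47385 tested contigs, 0.443% were called higher in root and 688 contigs higher in leaf at that limit. With the FDR limit eased to 0.05, edgeR's quasi-likelihood test called 13 in root and 1 in leaf, against 10.6% of all tested contigs in root. The share of all contigs called in leaf at this limit is not given here. Contigs picked in part for their difference between tissues were likely to be called, so these counts are a description only.

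None of these earlier steps shared the gap of *CYP719A1* between the root libraries. Only 1.59% of all tested contigs differed as far towards root 2, so its absence from 14 contigs says little about them. Of all tested contigs, 20.0% were at least 1.5-fold higher in root 2 and 20.4% in root 4. The ratios of root 2 to root 4 in the 14 ran from 0.300 to 1.41, and 12 of them stayed within 1.5-fold. Both of the others were *CNMT* contigs higher in root 4, with few root counts: TR72971|c194735_g1_i1 had 5 and 21 in root 2 and root 4, and TR271211|c114617_g1_i1 had 22 and 56. The highest ratio was that of *NCS* contig TR11741|c23152_g1_i1 at 1.41 (95% interval 1.29 to 1.55). The 3 *CYP80B1* contigs, for the P450 that acts before (S)-reticuline, lay between 0.911 and 0.944.

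Likeness to each enzyme was measured as the distance between centred log2 profiles over the 4 libraries, with 0.5 added to the normalized CPM. The sums of *SMT* and *CYP719A1* were 3.05 apart on this scale. Of the 14 contigs of earlier steps, the nearest to *SMT* was *NCS* contig TR32822|c129121_g1_i1 (0.721), and the nearest to *CYP719A1* was *NCS* contig TR11741|c23152_g1_i1 (1.12). Set among 23712 other contigs with a mean of at least 5 normalized CPM, these *NCS* contigs ranked only 92nd and 1094th. The log2 fold change of TR32822|c129121_g1_i1 was 8.91 and its root 2 to root 4 ratio 1.18, against 5.50 and 0.609 for the *SMT* sum. Among the 23712, the one nearest to *SMT* was TR44371|c150058_g1_i1 (0.140), with 167 and 351 counts in root 2 and root 4, against 3 and 0 in leaf 3 and leaf 4. Its fitted log2 fold change was 7.54, larger than that of the *SMT* sum despite the small distance. The one nearest to *CYP719A1* was TR159662|c71468_g1_i1 (0.0971), with 227 and 82 counts in root, against 22 and 25 in leaf. Neither carries a gene name in these sources.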

How the data were processed

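The authors aligned each library to a BinPacker assembly with Bowtie, estimated abundances with RSEM and deposited estimated counts per contig. All values were whole numbers, so rounding changed nothing. RSEM and edgeR are named in the submitters' processing notes, with versions that are not given in the sources used here. Contigs above 1 CPM in 2 or more libraries (47385) were tested, after TMM scaling, by the quasi-likelihood F test of edgeR 4.0.16 under R 4.3.3 over all 4 libraries. Each standard error was obtained from the log2 fold change and the square root of its F statistic. For a sum, the contigs of an enzyme formed 1 row of the table. The biological coefficient of variation was 0.335. Ratios of counts have Clopper-Pearson or Fisher intervals (95%), which cover counting error only; 1 count stands for 0.0484 to 0.0711 normalized CPM.

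As alternatives, DESeq2 1.42.0, limma-voom from limma 3.58.1 and the exact test of edgeR were run, as were other scalings, filters, thresholds and sets of contigs, and fits without 1 library. The tests were tested on simulated data with 200 changed contigs. The quasi-likelihood test found 23 of 100 contigs changed by 3 on the log2 scale and 89 of 100 changed by 5. The exact test found 56 and 98, DESeq2 64 and 98, and limma-voom 16 and 63. Calls of unchanged contigs numbered 3 of 115 for the quasi-likelihood test and 2 of 81 for limma-voom. They numbered 20 of 174 for the exact test and 23 of 185 for DESeq2. For every test, the quasi-likelihood test included, this share was above the FDR limit of 0.001, and most so for the exact test and DESeq2.

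The members and lists were chosen with earlier results of these data known. Named were all 11 contigs, the rest of their components, 14 contigs of earlier steps, and for each enzyme the 1 contig with the most similar profile. Sequences were not used here.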

Additional observations from a re-analysis of the deposited data

How the results depend on the processing

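No sign changed in the alternatives run, while calls and some sizes did. *SMT* contigs called higher in root numbered 5, and *CYP719A1* contigs 5, with edgeR's exact test, DESeq2, an FDR under 0.05 or no filter on low counts, which called 9.91%, 8.76%, 10.6% and 3.49% of all contigs higher in root. *SMT* contigs numbered 1 with a filter of 5 CPM (which left 2 of the 5 to test), with DESeq2 size factors or with TMM computed without the 100 most abundant contigs, against 2.12%, 0.536% and 0.547% of all contigs. The *SMT* sum was called with a log2 fold change of 5.50 by the exact test, by DESeq2, at an FDR under 0.05 and with DESeq2 size factors, of 5.46 without a filter and of 5.43 with the filter of 5 CPM. The *CYP719A1* sum was called at 2.69 by the exact test and at an FDR under 0.05, at 2.71 by DESeq2 and at 2.64 without a filter. The cause of these shifts was not tested.

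Leaving out each library, with the filter reapplied, gave 0 to 6 *CYP719A1* contigs called. It gave 0 *SMT* contigs without leaf 3 or leaf 4, and no number without root 2 or root 4, since none of the 5 passed the filter there. Log2 fold changes were 4.99 to 5.81 for the *SMT* sum and 1.53 to 3.41 for the *CYP719A1* sum. With the tested contigs kept, a version chosen after seeing the data, 5, 5, 4 and 1 *SMT* contigs were called without root 2, root 4, leaf 3 and leaf 4, against 8.42%, 11.9%, 4.94% and 1.07% of all contigs. The *SMT* sum was called in each at 5.75, 5.10, 5.90 and 5.13, and *CYP719A1* was called only without root 4 (6 contigs, the sum at 3.33). The difference between the enzymes was 1.83 to 4.34. With c70837 in place of c70834 the *CYP719A1* sum had a log2 fold change of 2.71 and with all 8 contigs 2.76. Library totals gave root 2 to root 4 ratios of 0.362 for *SMT* and 2.06 for *CYP719A1*; under it the median log2 fold change of all contigs was -0.098, against 0.006 with TMM.

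No paired analysis was possible because root and leaf libraries share only 1 replicate number, 4, in the labels. The 36 leaf counts of *SMT* limit the precision of its fold change.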
